A study of Homo sapiens with 8 samples.

Results

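Forced expression of FDX1 in the absence of drug was compared with the control state in WSU-DLCL2, an established human line of diffuse large B-cell lymphoma, by RNA sequencing. The comparison takes in every gene row with at least 1 FPKM (fragments per gene, scaled for model length and library size) in at least 2 of the 4 solvent-treated libraries, 10948 of the 60592 rows in each file, or 18.1%. The control libraries are labelled with a WT genotype and the FDX1-OE libraries with FDX1 overexpression. All 4 had received DMSO, the solvent, for 48 h, and each group held 2 libraries. The rest of the series is 4 libraries of the same 2 genotypes exposed for 48 h to 15 nM elesclomol (ES), a drug that ferries copper across membranes, and by its title the series asks how overexpression alters expression under that drug. How FDX1 was overexpressed, whether control cells carried an empty vector and whether the cells were a single clone are not given in the labels. Nor do they say whether replicate libraries were grown as separate cultures, so the p-values measure only the spread between these libraries, which may be technical.

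FDX1 is ferredoxin 1 (adrenodoxin), a small mitochondrial protein whose iron-sulfur cluster accepts electrons from ferredoxin reductase (FDXR) and hands them to other enzymes. Its classical clients are the mitochondrial cytochrome P450 enzymes of steroid and vitamin D metabolism, and it is also needed for protein lipoylation, which equips a few enzyme complexes of mitochondrial metabolism with their lipoic acid cofactor. Its relative FDX2 serves iron-sulfur cluster assembly. Copper carried in by elesclomol is reduced by FDX1 and binds lipoylated proteins, the background for asking what a high FDX1 level does before any drug is added.

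The cluster of a ferredoxin is held by 4 cysteines, and the stretch of coding sequence that spans them is shown for FDX1, its relative FDX2 and its processed pseudogene FDX1P1, because reads from the overexpressed transcript can only be assigned between these rows where the sequences differ. Capitals mark the 4 cysteine codons of the ligand pattern in FDX1 and FDX2. In the pseudogene FDX1P1 they mark the bases aligned to those codons of FDX1, which do not all lie in 1 reading frame. Sequences were read 5′ to 3′ on the transcribed strand from the GENCODE 29 transcripts.
FDX1: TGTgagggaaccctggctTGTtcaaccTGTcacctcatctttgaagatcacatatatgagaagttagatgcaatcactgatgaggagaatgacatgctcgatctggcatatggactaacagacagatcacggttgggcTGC
FDX1P1: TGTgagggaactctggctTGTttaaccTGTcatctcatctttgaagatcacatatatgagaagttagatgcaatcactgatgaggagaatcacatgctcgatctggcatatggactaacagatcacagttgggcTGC
FDX2: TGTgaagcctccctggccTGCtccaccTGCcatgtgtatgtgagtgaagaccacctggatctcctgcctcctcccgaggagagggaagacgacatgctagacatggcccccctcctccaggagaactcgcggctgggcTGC
The FDX1 stretch is 141 bases long, at coding positions 316 to 456. FDX1P1 matched it at 132 of 141 aligned columns (93.6%), with 4 gap columns and an uninterrupted match of 57 bases. FDX2, aligned without gaps, matched it at 74 of 141 positions (52.5%), with no shared run longer than 8 bases.

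FDX1 lies on chromosome 11 at 110429883 to 110464881 of GRCh38, on the plus strand, and its transcript has 4 exons. The coding sequence fills 555 of the 3206 transcript bases (17.3%) and encodes 184 residues. FDX1P1 lies on chromosome 20 at 34475924 to 34476474, on the minus strand, and aligned to the whole coding sequence of FDX1, transcript bases 239 to 793, and to no base outside it. Over that alignment 530 of 555 columns (95.5%) were identical and the longest exact run was 109 bases. These positions come from the annotation, since the deposited files hold gene symbols without coordinates.

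FDX1 stood at 10.8 and 10.4 FPKM in the 2 control libraries and at 59.8 and 56.0 FPKM in the 2 FDX1-OE libraries. The groups were far apart, and the libraries within each group lay close together. The group means were 10.6 ± 0.266 and 57.9 ± 2.72 FPKM (SD, n = 2), a 5.47-fold ratio, and the control cells already expressed the gene. FPKM is scaled to the same gene model in both groups, while the length of the overexpressed transcript is not given. The ratio in transcript molecules is therefore uncertain. On the log2(FPKM + 1) scale the difference was 2.35 (SE 0.0531, 95% interval 2.21 to 2.48). It had an adjusted p of 0.0003515 in limma's moderated test with Benjamini-Hochberg adjustment over all 10948 genes, and an adjusted p of 0.0985 when every row with a value above 0 in any library was tested, 24422 in all. In bulk RNA, more FDX1 transcript per cell and a larger share of cells carrying it cannot be told apart. In the ES libraries, which this test did not use, FDX1 stood at 9.88 and 10.0 FPKM in control cells and 60.7 and 59.4 FPKM in FDX1-OE cells. The difference there was 2.48, and the difference between the 2 treatments' effects was 0.13 (adjusted p = 0.3341, limma, all 8 libraries).

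Of the rows FDX1P1, FDX1P2, FDX2 and FDXR, only FDX1P1 separated the groups. FDX1P1 was below the level filter, at 0 and 0.0754 FPKM in control and 0.650 and 0.567 FPKM in FDX1-OE libraries, so it received no test. The ES libraries gave 0.0607 and 0 FPKM in control cells and 0.406 and 0.411 FPKM in FDX1-OE cells, again without overlap. A second pseudogene, FDX1P2, was listed at 0 in all 4 DMSO libraries. FDX2 stood at 12.9 and 12.1 FPKM against 13.4 and 12.4 FPKM, a log2 difference of 0.04 (SE 0.064, 95% interval -0.12 to 0.20, adjusted p = 0.90), with overlapping groups. The FDX2 row shares exons with the read-through rows AC011511.1 and AC011511.4 and its level is uncertain to that extent. FDXR, the reductase that feeds both ferredoxins, stood at 4.55 and 5.17 FPKM against 4.97 and 4.83 FPKM, a difference of 0.01 (95% interval -0.20 to 0.22, adjusted p = 0.9763), also with overlap. Of FDX1's neighbours on the chromosome, ZC3H12C, ARHGAP20 and C11orf53 were below 0.05 FPKM in all 4 libraries. RDX, a membrane-cytoskeleton linker, stood at 2.94 and 2.83 FPKM against 3.51 and 2.98 FPKM, a narrow gap without overlap (0.12, 95% interval -0.12 to 0.37, adjusted p = 0.7915). In ES it stood at 3.88 and 4.62 FPKM in control cells and 7.15 and 6.19 FPKM in FDX1-OE cells, apart in the same direction. In that direction 47.9% of all genes tested were apart in ES.

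**Figure D1:**
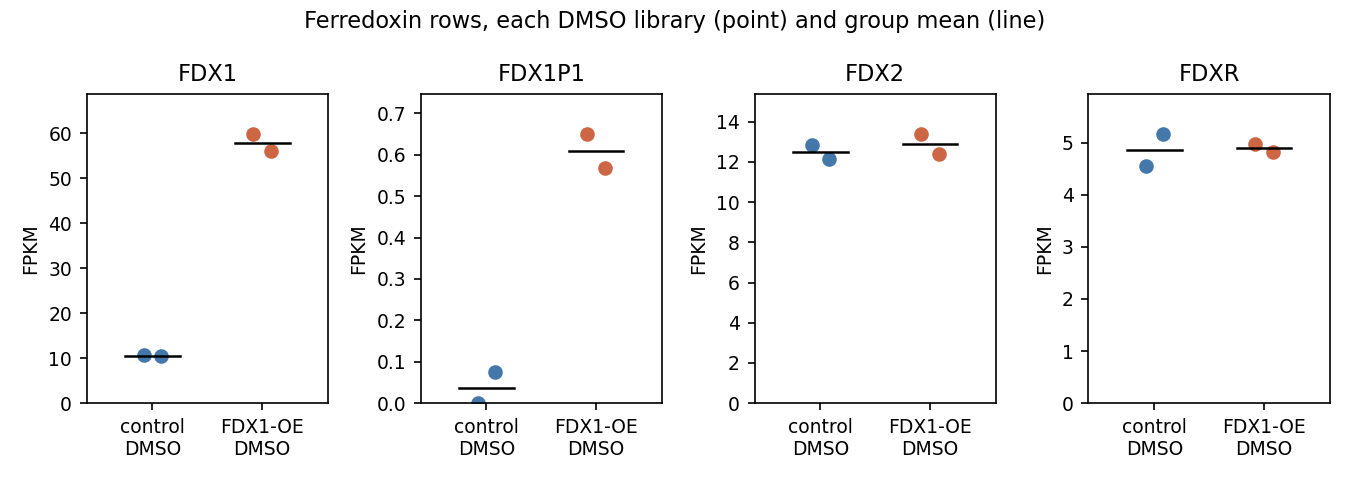
FPKM (vertical axes, each starting at 0) of FDX1, its pseudogene FDX1P1, FDX2 and FDXR in the 2 control DMSO and the 2 FDX1-OE DMSO libraries, with points for libraries and lines for group means. FDX1 and FDX1P1 separate the groups, while the points of FDX2 and FDXR overlap.

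The 4 libraries were alike in their general measures. Their FPKM summed to 445716 to 451027, rows at or above 1 FPKM numbered 10815 to 10866, and 17.4% to 17.6% of that sum came from mitochondrially encoded mRNAs. The absolute depth is unknown. The commonest low value, taken as 1 fragment, put the relative depths within 1.185 of each other. The cell identity matched the label: all 8 B cell markers passed the level filter, their sum lay between 1577 and 1628 FPKM, and the 5 germinal centre markers summed to 267 to 276 FPKM. No T and NK cell marker of 6, myeloid marker of 5 or epithelial and fibroblast marker of 5 passed it, and none of these lists summed to more than 0.257 FPKM in a library. In longer lists of these cell types, 13, 11 and 11 genes, only AIF1, at 1.498 to 2.30 FPKM, and DCN, at 0.999 to 1.46 FPKM, passed it.

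Across the transcriptome differences between FDX1-OE and control were small. The median gene had a log2 difference of -0.000869, and the 5th and 95th percentiles were -0.172 and 0.205. The median absolute difference was 0.0725 between the 2 control libraries, 0.0715 between the 2 FDX1-OE libraries and 0.0609 between the group means. Among the 6619 genes with a mean log2(FPKM + 1) of at least 3, these medians were 0.0576, 0.0574 and 0.0504. A difference between means averages 2 libraries on each side and is smaller than one between single libraries for that reason alone, so these medians are not on an equal footing.

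**Figure D2:**
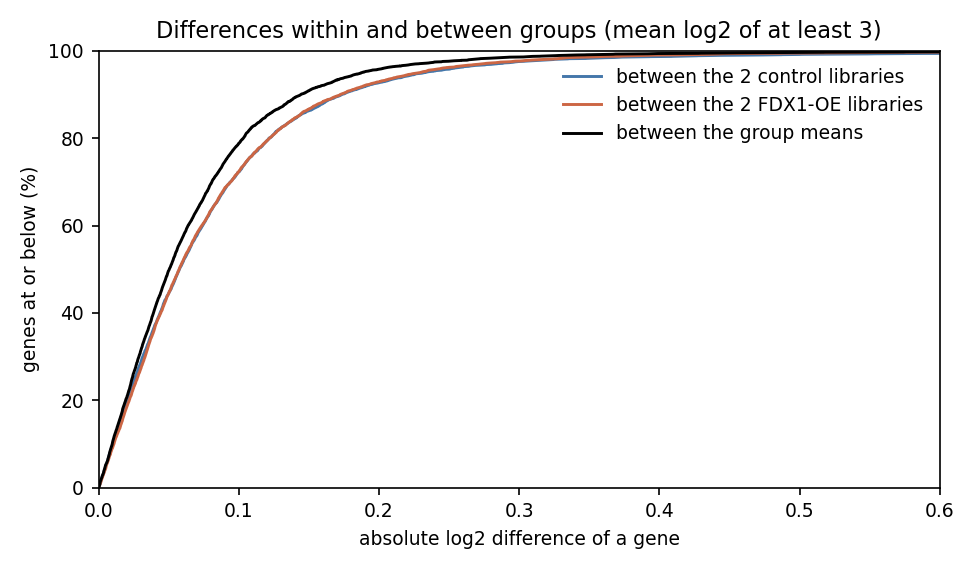
Cumulative share of genes (vertical axis, percent) by absolute log2 difference (horizontal axis) for the 6619 genes with a mean log2(FPKM + 1) of at least 3, between the 2 control libraries, between the 2 FDX1-OE libraries and between the group means. The curve for the group means lies to the left of the others, with a median of 0.0504 against 0.0576 and 0.0574.

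Only 3 of the 10948 genes (0.0274%) had an adjusted p below 0.05, and they are FDX1 and a pair of read-through rows. Of the 3, 2 were higher (0.0183% of genes tested) and 1 was lower (0.00913%). Each read-through row passed the level filter only through the group where it was high, so its direction was set by the filter. The count rose to 13 without control replicate 1, 11 without control replicate 2 and 5 without FDX1-OE replicate 1. In an unadjusted reading 818 genes (7.47%) had p below 0.05, 421 higher (3.85%) and 397 lower (3.63%) with FDX1-OE. The 2 libraries of each group did not overlap for 4301 genes (39.3%), of which 2114 (19.3%) were higher and 2187 (20%) lower. A log2 difference of 1 or more was seen for 10 genes above and 9 genes below control, and among the 6619 better expressed genes for 3 above and 1 below. The 95% interval of the difference lay within -1 to 1 for 10817 genes (98.8%), and its median distance from the estimate to either bound was 0.179, or 0.141 among the better expressed genes. Of the latter, 97.2% had an interval within -0.5 to 0.5.

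**Figure D3:**
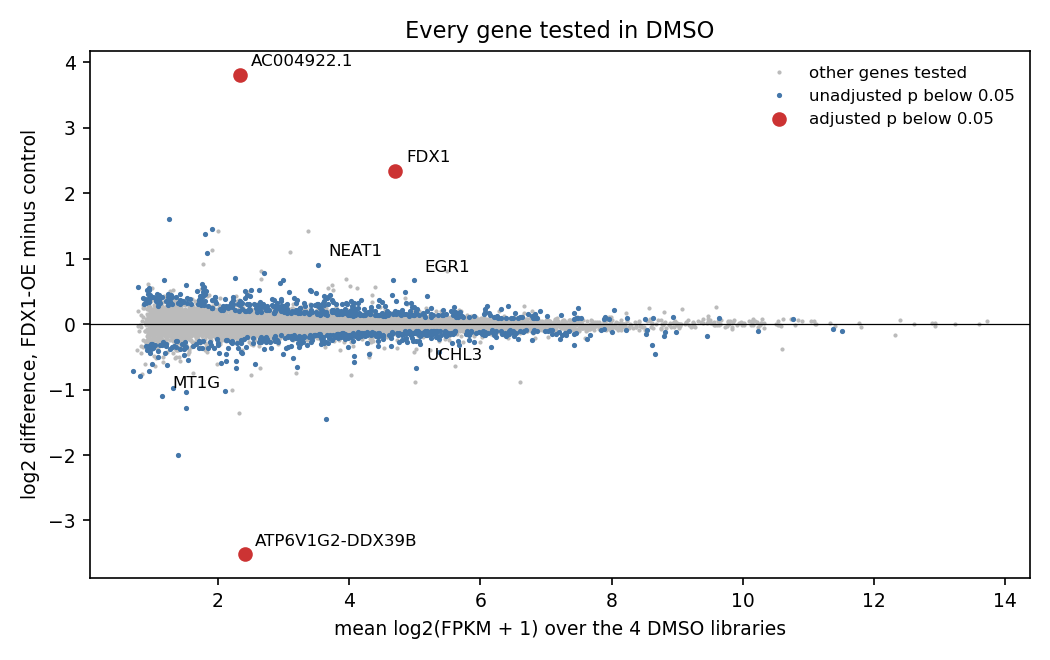
Log2 difference between FDX1-OE and control (vertical axis) against mean log2(FPKM + 1) over the 4 DMSO libraries (horizontal axis) for each of the 10948 genes, with the 3 genes at adjusted p below 0.05 in red and genes at unadjusted p below 0.05 in blue. FDX1 lies at 2.35, and the 2 red points beyond it are the read-through rows AC004922.1 at 3.81 and ATP6V1G2-DDX39B at -3.51.

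The read-through rows are annotated transcripts that run from one gene into the next, so their exons are also those of their parts. ATP6V1G2-DDX39B, on chromosome 6, joins a proton pump subunit gene to the RNA helicase gene DDX39B. It stood at 20.2 and 14.1 FPKM in control and 0.848 and 0.340 FPKM in FDX1-OE libraries, a log2 difference of -3.51 (SE 0.215, adjusted p = 0.03309, limma). The row passed the level filter through the control libraries alone. It fell in DMSO. Without any separation, the ES libraries gave 1.29 and 23.3 FPKM in control cells and 18.6 and 5.84 FPKM in FDX1-OE cells. DDX39B itself stood at 70.4 and 83.7 FPKM against 96.8 and 89.1 FPKM. The summed FPKM of the read-through row, DDX39B and ATP6V1G2 was 93.1 and 100.1 in control and 101.1 and 92.5 in FDX1-OE libraries, so the sums overlapped.

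AC004922.1, on chromosome 7, spans the genes of ARPC1A and ARPC1B, subunits of the actin-nucleating ARP2/3 complex. It stood at 0.444 and 0.258 FPKM in control and 23.5 and 13.6 FPKM in FDX1-OE libraries, a log2 difference of 3.81 (SE 0.243, adjusted p = 0.03309, limma). The row passed the level filter through the FDX1-OE libraries alone. It rose in DMSO. The ES libraries gave 9.12 and 12.2 FPKM in control cells and 8.98 and 0.180 FPKM in FDX1-OE cells, so the order did not repeat. ARPC1A stood at 62.7 and 62.6 FPKM against 50.9 and 59.5 FPKM, and ARPC1B at 191 and 190 FPKM against 177 and 188 FPKM. Summed with the read-through row they gave 254.6 and 252.4 FPKM in control and 251.2 and 261.6 FPKM in FDX1-OE libraries, again overlapping. Sums of FPKM over rows of unequal model length are only a rough total. How the authors' counting divided fragments among overlapping rows is not given, and its part in these values was not tested. Both calls were lost when all 8 libraries shared a single limma fit (adjusted p = 0.999 for ATP6V1G2-DDX39B and 0.972 for AC004922.1), when the prior was made robust (0.0652 and 0.0718) and when the mean-variance trend was left out (0.114 for each). A replicate block in all 8 libraries lost both too (0.999 and 0.861). FDX1 kept its call in these fits. Without a level filter neither row was called (0.559 for each), nor was FDX1. AC004922.1 lost its call with quantile scaling (0.0745). ATP6V1G2-DDX39B lost its call with a pseudocount of 0.1 (0.0884) and with weighted libraries in a fit of all 8 (0.372). ATP6V1G2-DDX39B also lost its call without FDX1-OE replicate 2 (adjusted p = 0.0762).

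Below the threshold, the better expressed genes with the widest gaps were taken by a rule: unadjusted p below 0.05, libraries that do not overlap, and a mean log2 of at least 3. The rule also left out symbols shared by several rows and clone, accession, LOC, LINC and open-reading-frame names. It admitted 253 higher (2.31% of genes tested) and 287 lower genes (2.62%), and up to 10 with the largest difference were taken in each direction. FDX1 headed the higher genes and was the only one of these 20 to pass the adjusted threshold. The others are described by their values.

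Higher values were found for several regulatory genes. NEAT1, the long noncoding RNA that scaffolds nuclear paraspeckles, stood at 8.04 and 6.82 FPKM in control and 10.5 and 20.6 FPKM in FDX1-OE libraries, a log2 difference of 0.91 (adjusted p = 0.6391) that rests largely on 1 library. EGR1, an immediate early transcription factor, stood at 26.3 and 22.4 FPKM against 46.7 and 33.0 FPKM, a difference of 0.67 (adjusted p = 0.62). FOS, another of that class, stood at 28.1 and 19.3 FPKM against 37.1 and 29.6 FPKM, a difference of 0.49 (adjusted p = 0.6559). MAPKAPK5, a kinase of the MAP kinase cascade, was tighter, at 8.07 and 7.59 FPKM against 11.0 and 12.3 FPKM, a difference of 0.52 (SE 0.077, adjusted p = 0.4076). The groups of each of these genes did not overlap, but their spread within a group was of the order of the gap between groups for NEAT1, EGR1 and FOS.

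The remaining higher genes had differences of 0.45 to 0.51. TRIT1, which modifies a base of transfer RNAs, stood at 5.78 and 6.53 FPKM in control and 7.52 and 10.9 FPKM in FDX1-OE libraries. TNFAIP8, a regulator of apoptosis, stood at 10.8 and 9.56 FPKM against 12.8 and 15.8 FPKM. UBE2F, which conjugates the ubiquitin-like protein NEDD8, stood at 9.48 and 7.72 FPKM against 12.2 and 12.5 FPKM. KLHDC2, a substrate receptor of a ubiquitin ligase, stood at 9.20 and 6.80 FPKM against 13.5 and 10.1 FPKM. RPE, an enzyme of the pentose phosphate pathway, stood at 20.1 and 20.9 FPKM against 23.1 and 34.7 FPKM. Single libraries weighed heavily here: with 1 left out, the difference ran from 0.16 to 0.73 for RPE, from 0.32 to 0.71 for KLHDC2 and from 0.25 to 0.74 for TRIT1. The adjusted p of these 5 genes lay between 0.5686 for UBE2F and 0.6657 for RPE.

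Among the lower genes UCHL3, a deubiquitinating enzyme, had the largest difference. It stood at 38.8 and 40.7 FPKM in control and 22.9 and 26.5 FPKM in FDX1-OE libraries, -0.67 on the log2 scale (SE 0.076, adjusted p = 0.1965). UCHL3 shares sequence with the row AL137782.1, which stood at 1.22 and 1.12 FPKM against 5.13 and 4.21 FPKM, and the sum of both was still apart, at 40.1 and 41.8 against 28.0 and 30.7. In ES the UCHL3 values were 21.8 and 36.2 FPKM in control cells and 36.2 and 21.1 FPKM in FDX1-OE cells, a spread within each genotype about as wide as the DMSO gap.

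TMEM33, a membrane protein of the endoplasmic reticulum, stood at 21.4 and 22.8 FPKM in control and 16.2 and 15.5 FPKM in FDX1-OE libraries (-0.46, SE 0.056, adjusted p = 0.2314). Its 2 groups were also apart in ES, at 22.2 and 21.6 FPKM against 17.9 and 13.6 FPKM, a difference of -0.46. RPL41P1, a processed pseudogene of a ribosomal protein gene and therefore uncertain, stood at 18.7 and 19.2 FPKM against 13.8 and 12.9 FPKM (-0.48, SE 0.056, adjusted p = 0.1965), while its parent RPL41 differed by 0.08. RPL41P1 stayed apart in ES, at 19.7 and 24.3 FPKM against 14.6 and 12.4 FPKM.

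BSCL2, the seipin of lipid droplet formation, stood at 17.3 and 22.3 FPKM in control and 15.8 and 10.5 FPKM in FDX1-OE libraries (-0.58, adjusted p = 0.6391). Summed with its read-through row HNRNPUL2-BSCL2 the values were 23.5 and 24.4 against 21.0 and 20.5. The proteasome subunit gene PSMA4 (-0.43), CNIH4, a cargo receptor of the early secretory pathway (-0.37), and the metallothionein gene MT1X (-0.35) were lower by less. MIR1281 (-0.66), which lies inside EP300, the small nucleolar RNA SNORA3B (-0.52) and the mitochondrial phenylalanine transfer RNA MT-TF (-0.46) complete the 10. These last 3 are very short rows, whose FPKM in a library of longer fragments is uncertain. MT-TF ranged from 562 to 397 FPKM within control, beside 350 and 334 FPKM with FDX1-OE, and without control replicate 2 its difference was called (-0.71, adjusted p = 0.0204).

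**Figure D4:**
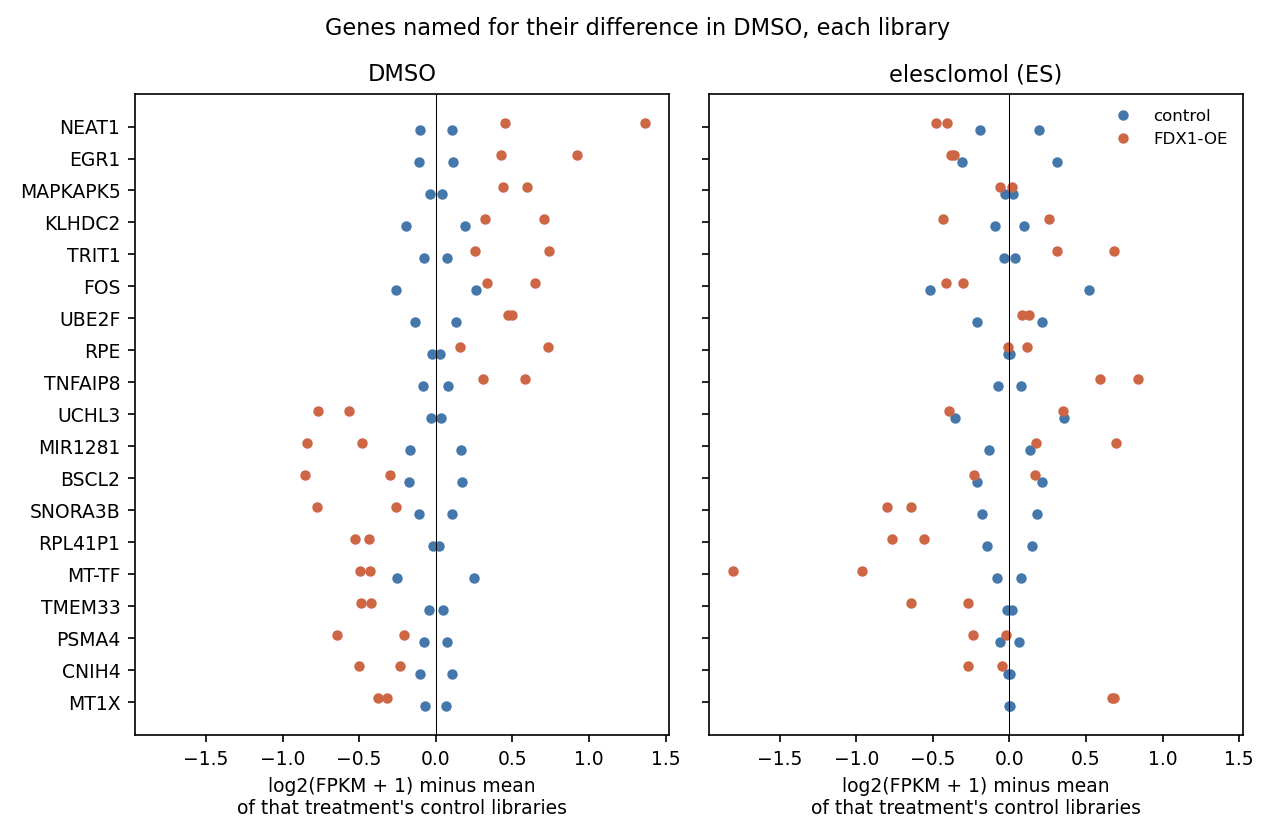
Log2(FPKM + 1) of each library less the mean of the control libraries of the same treatment (horizontal axes), for 9 higher and 10 lower genes chosen on the DMSO libraries (left panel) and for the same genes in the ES libraries (right panel). The separation on the left is fixed by the choice; on the right 2 of the 9 higher genes, TRIT1 and TNFAIP8, and 5 of the 10 lower genes are apart in the direction seen in DMSO.

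The ES libraries are separate samples of the same genotypes and played no part in choosing these genes. Among the 9 higher genes other than FDX1, 4 also had a higher mean with FDX1-OE in ES, where 66.1% of all genes tested did. TRIT1, at 8.004 and 7.55 FPKM against 9.89 and 13.1 FPKM, and TNFAIP8, at 12.1 and 10.8 FPKM against 21.2 and 17.8 FPKM, were apart in that direction, beside 47.9% of all genes, and 2 genes, NEAT1 and EGR1, were apart in the opposite one. Among the 10 lower genes 8 had a lower mean in ES, where 33.9% of all genes did. SNORA3B, RPL41P1, MT-TF, TMEM33 and CNIH4 were apart in that direction, beside 20% of all genes, and MIR1281 and MT1X in the opposite one.

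The wider groups at unadjusted p below 0.05 were read in ES in the same way. Of the 421 genes higher in DMSO, 59.4% were higher in ES, against 66.1% of all genes tested. Of the 397 lower genes, 44.1% were lower in ES, against 33.9% of all. With the mean log2 at 3 or more, 49.4% of 261 higher genes and 48.6% of 294 lower genes kept their direction, beside 58% and 42% of the 6619 genes at that level. The genotype comparison in ES also holds the response to the drug, so a direction that is not repeated there cannot be told apart from that response.

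Genes of the processes FDX1 is known to serve were taken from lists. In all, 40 lists held 689 genes that were tested, and FDX1 was the only one called. The 36 lists with at least 3 members tested had median log2 differences between -0.408 and 0.123, beside -0.000869 over all genes, and 3 of the 36 medians lay beyond 0.1 in either direction.

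The P450 enzymes that take electrons from ferredoxin were almost unexpressed. CYP11A1, CYP11B1 and CYP11B2 of steroid synthesis and CYP24A1, CYP27A1 and CYP27C1 were listed at 0 in all 4 libraries. CYP27B1, which activates vitamin D, was the only one of 7 tested, at 1.82 and 1.26 FPKM in control and 0.866 and 1.19 FPKM in FDX1-OE libraries (-0.32, adjusted p = 0.6871).

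Lipoylation enzymes showed no call and none of the 6 tested had an unadjusted p below 0.05, where 7.47% of all genes did. LIAS, which builds lipoic acid on its target proteins, stood at 5.77 and 6.22 FPKM in control and 6.66 and 6.87 FPKM in FDX1-OE libraries. The groups did not overlap, and the difference was 0.15 (SE 0.070, 95% interval -0.02 to 0.33, adjusted p = 0.6871). LIPT1, a lipoyltransferase, stood at 3.22 and 2.70 FPKM against 3.49 and 3.93 FPKM (0.25, 95% interval -0.01 to 0.52, adjusted p = 0.6681). NDUFAB1, the mitochondrial acyl carrier protein, was lower without overlap, at 85.9 and 83.2 FPKM against 82.4 and 74.6 FPKM (-0.11, adjusted p = 0.7042). OXSM (0.10), MCAT (0.03) and MECR (-0.001122) of mitochondrial fatty acid synthesis, the pathway that makes the precursor, had overlapping groups. LIPT2, the enzyme that starts the transfer, was below the level filter at 0.613 and 0.912 FPKM against 0.922 and 0.915 FPKM.

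The lipoylated proteins and their partners were close to control. Of 13 listed genes 11 were tested, their differences ran from -0.111 to 0.115, and the 95% interval of each of the 11 lay within -0.5 to 0.5. DLAT, the lipoylated core of the pyruvate dehydrogenase complex, stood at 29.3 and 27.6 FPKM against 26.5 and 26.0 FPKM (-0.11, adjusted p = 0.6859). DLST, the corresponding core of the 2-oxoglutarate dehydrogenase complex, stood at 38.3 and 38.8 FPKM against 39.2 and 39.3 FPKM (0.02, adjusted p = 0.9026). OGDH, the first enzyme of that complex, was the only member at unadjusted p below 0.05, at 106 and 106 FPKM against 99.1 and 100.5 FPKM (-0.09, adjusted p = 0.6532). GCSH, the lipoylated protein of glycine cleavage, had a difference of 0.11 (adjusted p = 0.6807), and its partners GLDC and AMT were below the level filter.

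Iron-sulfur and haem genes were likewise close to control. All 25 genes of iron-sulfur cluster assembly were tested and their median was -0.019. CIAO2B, which hands clusters to cytosolic and nuclear proteins, was the only one at unadjusted p below 0.05, at 71.6 and 72.9 FPKM against 77.7 and 79.9 FPKM (0.12, adjusted p = 0.6391). The scaffold gene ISCU stood at 25.4 and 25.3 FPKM against 25.5 and 26.3 FPKM (0.03, adjusted p = 0.9037). The interval of 23 of the 25 genes lay within -0.5 to 0.5. Among 10 haem and haem A genes the median was 0.00194. FECH, the enzyme that inserts iron to form haem, is itself an iron-sulfur protein. It stood at 4.10 and 3.26 FPKM in control and 7.21 and 4.21 FPKM in FDX1-OE libraries, a difference of 0.49 with an interval of -0.07 to 1.05 (adjusted p = 0.6859).

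Copper genes gave a mixed picture. Among 15 tested genes of copper transport and copper chaperones the median was 0.0814, and 4 were higher (26.7%) and 1 lower (6.67%) without overlap, beside 19.3% and 20% of all genes. COMMD1, which takes part in copper export, stood at 8.06 and 7.66 FPKM in control and 10.2 and 10.0 FPKM in FDX1-OE libraries. The groups were well apart, with a difference of 0.33 (SE 0.061, adjusted p = 0.5507). COMMD1 was named for the smallest p of its list, which favours groups that are apart. In ES it stood at 13.2 and 11.2 FPKM against 14.6 and 16.1 FPKM, apart in the same direction. In that direction 47.9% of all genes tested were apart in ES. SLC31A1, the copper importer CTR1, stood at 7.13 and 6.43 FPKM against 7.56 and 7.44 FPKM (0.13, adjusted p = 0.7168), and ATOX1, a copper chaperone, at 45.5 and 42.9 FPKM against 49.1 and 42.7 FPKM (0.05, adjusted p = 0.8942).

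Metallothioneins are small metal-binding proteins whose genes respond to copper, zinc and cadmium. Of 11 genes 6 were listed at 0, 1 was below the level filter and 4 were tested. None of the 4 passed the threshold. MT2A stood at 32.0 and 26.7 FPKM in control and 19.3 and 26.0 FPKM in FDX1-OE libraries (-0.37, adjusted p = 0.6697). MT1X stood at 16.1 and 17.8 FPKM against 12.8 and 13.4 FPKM (-0.35, SE 0.067, adjusted p = 0.5507). The gap of MT2A was narrow and that of MT1X wider than the spread of either group.

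MT1F stood at 3.90 and 3.52 FPKM in control and 2.89 and 2.06 FPKM in FDX1-OE libraries (-0.45, adjusted p = 0.6391), and MT1G at 1.77 and 2.83 FPKM against 0.625 and 0.416 FPKM (-1.10, SE 0.185, adjusted p = 0.4649). MT1G passed the level filter through the control libraries alone, so its place among the lower genes was set by the filter. The other 3 tested genes had both FDX1-OE libraries below both control libraries, as 20% of all genes tested did, with a median of -0.368, or -0.408 with MT1G. MT1H, below the level filter, stood at 1.12 and 0.286 FPKM against 0 and 0.102 FPKM. The summed FPKM of the list was 54.9 and 51.1 in control and 35.6 and 42.0 in FDX1-OE libraries. These genes lie in 1 cluster and are near-identical in sequence, so they are neither independent of each other nor free of shared reads. In ES the order was the reverse, with MT1X for example at 39.4 and 39.2 FPKM in control cells and 63.8 and 63.1 FPKM in FDX1-OE cells. MTF1, the transcription factor that drives them, stood at 4.66 and 4.24 FPKM against 4.34 and 4.05 FPKM in DMSO (-0.07, adjusted p = 0.8606).

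Respiration and central metabolism were near control. The 36 nuclear genes of complex I had a median of 0.0255, and the 38 of complexes II to V a median of 0.0298. NDUFC1 of complex I stood at 14.3 and 12.6 FPKM against 18.8 and 16.3 FPKM (0.36, adjusted p = 0.62). NDUFA7, with the widest difference of its list (0.81), owed it to 1 control library, at 58.1 and 18.5 FPKM against 56.6 and 60.5 FPKM. Of the 13 mitochondrially encoded mRNAs 3 were lower at unadjusted p below 0.05 (23.1%, beside 3.63% of all genes), MT-ND6, MT-ND1 and MT-ND5, with MT-ND6 at 531 and 520 FPKM against 483 and 480 FPKM (-0.13, adjusted p = 0.62). All 3 also had a lower mean with FDX1-OE in ES, where 33.9% of all genes did, but this was not particular to them. Mitochondrially encoded mRNAs made up 17.55% and 16.89% of summed FPKM in control ES libraries and 14.74% and 11.87% in FDX1-OE ES libraries. MT-ND3, whose difference was 0.08 in DMSO, differed by -0.35 in ES. IDH3A, a subunit of the isocitrate dehydrogenase of the tricarboxylic acid cycle, stood at 20.6 and 20.2 FPKM against 16.1 and 16.9 FPKM (-0.29, SE 0.051, adjusted p = 0.4791).

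Stress programmes gave no call. No NRF2 target of 17 had an unadjusted p below 0.05, where 7.47% of all genes did. The 17 had a median of 0.0112 and all of their intervals lay within -0.5 to 0.5. The 23 tested targets of the integrated stress response had a median of 0.0251, with PCK2, the mitochondrial enzyme that makes phosphoenolpyruvate, at 1.75 and 2.00 FPKM against 2.77 and 2.67 FPKM (0.37, adjusted p = 0.62). Heat shock genes had a median of -0.028 over 20. Interferon-stimulated genes were mostly below the level filter, 14 of 37 being tested, with a median of 0.0923. OAS3 alone had an unadjusted p below 0.05, at 14.1 and 14.2 FPKM against 15.9 and 15.4 FPKM (0.13, adjusted p = 0.6474).

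Genes of endoplasmic reticulum stress, mostly chaperones of protein folding, had 16 of 19 differences below 0, a median of -0.0674, and 5 genes lower (26.3%) and 1 higher at unadjusted p below 0.05, beside 3.63% and 3.85% of all genes. DNAJB11, a cochaperone, stood at 38.2 and 35.3 FPKM in control and 29.3 and 29.8 FPKM in FDX1-OE libraries (-0.31, SE 0.053, adjusted p = 0.4791). The calcium-binding chaperone gene CALR stood at 390 and 382 FPKM against 348 and 348 FPKM (-0.15, SE 0.030, adjusted p = 0.5686), and HYOU1 at 44.4 and 42.6 FPKM against 39.1 and 38.3 FPKM (-0.16, adjusted p = 0.62). Each of these had groups well apart, at differences of a small size. They were named for the smallest p of the list, which favours groups that are apart. The 5 lower genes also had a lower mean with FDX1-OE in ES, where 33.9% of all genes did, but DNAJB11 (-0.02) and HYOU1 (-0.04) overlapped there. CALR was apart in ES, at 344 and 345 FPKM in control cells and 287 and 259 FPKM in FDX1-OE cells (-0.34). HSPA5, the central chaperone of this response, stood at 193 and 180 FPKM against 180 and 168 FPKM (-0.10, adjusted p = 0.7042).

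NF-kB targets and immediate early genes lay on opposite sides of 0. Of 18 NF-kB targets tested, 7 were lower (38.9%) and none higher at unadjusted p below 0.05, beside 3.63% and 3.85% of all genes. Without overlap 11 were lower (61.1%, beside 20% of all genes), and the median of the list was -0.105. NFKBIA, the inhibitor that NF-kB induces against itself, stood at 60.1 and 61.6 FPKM in control and 52.9 and 49.3 FPKM in FDX1-OE libraries (-0.25, SE 0.048, adjusted p = 0.558). TNF stood at 30.7 and 29.7 FPKM against 26.5 and 25.1 FPKM (-0.22, adjusted p = 0.62), and NFKB1, a subunit of the factor, at 37.4 and 36.8 FPKM against 32.6 and 33.0 FPKM (-0.17, adjusted p = 0.62). RELB (0.04) and NFKB2 (-0.04) had overlapping groups. In ES none of the 7 had a lower mean with FDX1-OE, where 33.9% of all genes did.

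Immediate early genes, which are switched on within minutes of many stimuli, had a median of 0.123 over 19 tested. At unadjusted p below 0.05, 5 were higher and none lower: EGR1 and FOS, already given, DUSP2, JUNB and IER3. IER3, at 0.767 and 0.632 FPKM against 1.25 and 1.12 FPKM, passed the level filter through the FDX1-OE libraries alone. Without it 4 of 18 were higher (22.2%, beside 3.85% of all genes), with a median of 0.105. DUSP2, a phosphatase of MAP kinases, stood at 75.8 and 69.2 FPKM against 90.2 and 80.6 FPKM (0.23, adjusted p = 0.6391). JUNB, a partner of FOS, stood at 50.1 and 48.5 FPKM against 53.6 and 54.0 FPKM (0.12, adjusted p = 0.6391). The class was not uniform, since IER2 stood at 75.2 and 63.0 FPKM against 60.9 and 59.5 FPKM (-0.19, adjusted p = 0.6859), JUND differed by -0.01 and MYC by 0.04. For EGR1 and FOS control replicate 2 was the lowest of the 4 libraries and FDX1-OE replicate 1 the highest. Leaving out single libraries moved the median of the list between 0.0464 and 0.174. In ES 2 of the 5 had a higher mean with FDX1-OE, where 66.1% of all genes did.

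**Figure D5:**
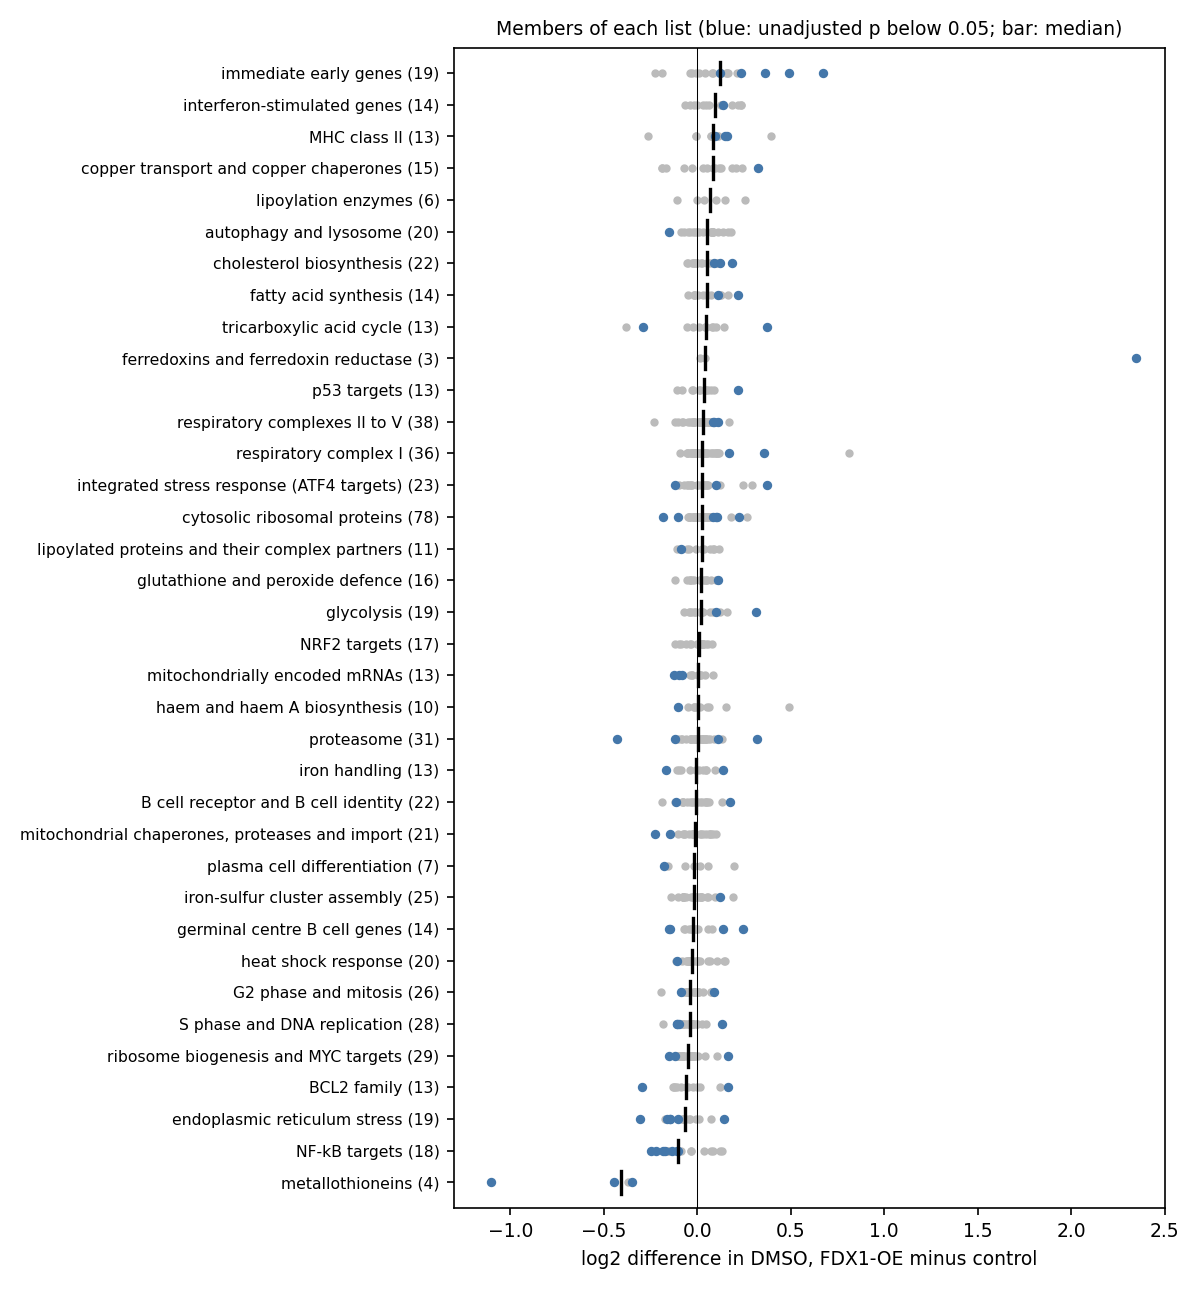
Log2 difference between FDX1-OE and control in DMSO (horizontal axis) for each tested member of the 36 lists with at least 3 members tested, whose number is in brackets. Points are genes, blue where the unadjusted p is below 0.05, and black bars are medians, which run from -0.408 for the metallothioneins to 0.123 for the immediate early genes.

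Genes of B cell identity lay near control, while most MHC class II genes were slightly higher. The 22 tested genes of the B cell receptor and B cell identity had a median of -0.00855, and the intervals of all 22 lay within -0.5 to 0.5. The 14 germinal centre genes had a median of -0.0206, with RGS13, a regulator of G protein signalling, at 67.5 and 66.0 FPKM against 74.3 and 73.0 FPKM (0.14, adjusted p = 0.62) and SERPINA9, a protease inhibitor, at 48.1 and 47.8 FPKM against 42.7 and 43.9 FPKM (-0.14, adjusted p = 0.62). The 13 MHC class II genes had a median of 0.0862, and none was called. Without overlap 9 were higher (69.2%) and 1 lower (7.69%), beside 19.3% and 20% of all genes. At unadjusted p below 0.05, 3 were higher (23.1%, beside 3.85% of all genes) and none lower. In ES 1 of these 3 had a higher mean with FDX1-OE, where 66.1% of all genes did. HLA-DPB1, which encodes a chain of the peptide-presenting HLA-DP molecule, stood at 27.8 and 27.7 FPKM against 32.1 and 30.1 FPKM (0.16, adjusted p = 0.6391).

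Genes of S phase were slightly lower, with 25 of 28 differences below 0 and a median of -0.0405, beside 50.3% below 0 over all genes. Ribosome biogenesis genes were alike, with 25 of 29 below 0 and a median of -0.0488, while 60 of 78 cytosolic ribosomal protein genes were above 0, with a median of 0.0251. UHRF1, which maintains DNA methylation in S phase, stood at 50.2 and 50.0 FPKM against 46.5 and 46.2 FPKM (-0.11, adjusted p = 0.6391). NOLC1, a nucleolar protein, went the other way, at 101 and 98.2 FPKM against 112 and 111 FPKM (0.16, SE 0.034, adjusted p = 0.5686).

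After FDX1, the listed gene with the smallest unadjusted p was in the proteasome list. PSMC1, an ATPase subunit of the regulatory particle, stood at 26.1 and 26.9 FPKM in control and 33.3 and 33.2 FPKM in FDX1-OE libraries (0.32, SE 0.043, adjusted p = 0.3175). In ES it stood at 27.8 and 26.4 FPKM in control cells and 23.6 and 22.2 FPKM in FDX1-OE cells. The list's median was 0.00123 over 31. Among 13 BCL2 family genes, with a median of -0.0579, BMF, a promoter of apoptosis, stood at 12.5 and 11.8 FPKM against 9.97 and 9.41 FPKM (-0.30, SE 0.063, adjusted p = 0.5686), and BCL2 itself at 19.1 and 18.8 FPKM against 17.8 and 17.7 FPKM (-0.09, adjusted p = 0.7068). BMF was higher with FDX1-OE in ES, at 18.7 and 21.3 FPKM in control cells and 28.4 and 33.3 FPKM in FDX1-OE cells.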

How the data were processed

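The authors deposited 1 table of FPKM for each library, keyed by gene symbol. The unit was read from the values, since no header names it. Per the submitters' processing notes, the tools included HTSeq, HISAT2 and R 3.2.0 with the build hg19, in roles not stated, and strand handling is not given in the sources used here. Per the labels' protocols, TRIzol was used for RNA extraction and the VAHTS Universal V6 kit for library preparation. No counts or depths were used, and precision rests on 2 libraries a group.

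From the deposited FPKM, log2(FPKM + 1) was computed without further scaling, so differences of low genes are understated. A gene was tested if 2 or more of the 4 DMSO libraries reached 1 FPKM. limma 3.58.1 (R 4.3.3), tested on simulated data, fitted the 2 group means with a mean-variance trend (2 residual and 3.49 prior degrees of freedom). A two-sided p, adjusted by Benjamini-Hochberg over all genes tested, had to lie below 0.05 for a call. Adjusted p-values for differences between treatments come from a limma fit of all 8 libraries. Only 33 tested rows share a symbol with another row, and none is named. The members, the 40 gene lists (821 entries, 820 matched) and the alternatives were chosen with earlier results of these data known. Named genes were FDX1, every called gene, up to 10 uncalled genes each way by the rule given with them, and, per list, all members or up to 4 with the smallest p. ISCU, DLST, SLC31A1, ATOX1, MTF1, HSPA5, IER2, JUND, MYC, RELB and NFKB2 were added after their values were seen. Gene models and transcripts came from GENCODE 29 (GRCh38), matched by symbol, and sequences were aligned with Biopython 1.88. Alternatives covered the pseudocount, filter, scaling, fit, replicate block and single libraries left out.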

Additional observations from a re-analysis of the deposited data

Results flagged for a closer look

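For several genes the FDX1-OE difference in ES was unlike that in DMSO by a direct test of the difference (limma, all 8 libraries, adjusted p below 0.05). The test uses the DMSO libraries that chose some of these genes, so it is not independent of that choice. The share of all genes that passed this test is not given here, so passing does not set these genes apart. Subtracting the DMSO difference from the ES difference gave, on the log2 scale, 2.13 for MT1G (adjusted p = 0.006971), 1.70 for MT2A (0.009548), 1.27 for MT1F (0.0165) and 1.03 for MT1X (0.002503). The means of these genes were lower with FDX1-OE in DMSO and higher with it in ES, and MT1G was tested only because its control libraries passed the level filter. EGR1 gave -1.05 (0.0472), NEAT1 -1.35 (0.03976) and MAPKAPK5 -0.54 (0.02254), their means being higher with FDX1-OE in DMSO and not in ES. MIR1281 gave 1.10 (0.03444) and the read-through row AC004922.1 gave -5.57 (0.01589), and the levels of these 2 rows are uncertain. AC004922.1 was tested only because its FDX1-OE libraries passed the level filter.

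A signal also appeared in a row below the level filter. The pseudogene FDX1P1 averaged 0.609 FPKM in the FDX1-OE DMSO libraries, above both control libraries. It matches only the coding part of FDX1, and the origin of its reads was not tested.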

How the results depend on the processing

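FDX1 kept its call in 16 of 17 alternatives, with differences from 2.30 to 2.44 (2.298 to 2.392 with single libraries left out). Without a level filter it was 2.345 at an adjusted p of 0.0985. The count of 3 called genes became 0 without a filter (1659 at unadjusted p below 0.05), and 1 in the fit of all 8 libraries, without the trend and with a robust prior. It ran from 4 to 13 with single libraries left out, at 13 without control replicate 1, 11 without control replicate 2 and 5 without FDX1-OE replicate 1. These fits leave a lone library that is assumed to vary like the other group. MT-TF was called without control replicate 2 (-0.71, adjusted p = 0.0204).

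Replicate numbers do not pair the libraries by the labels, and deviations of same-numbered libraries correlated at 0.011 across genes. With a replicate block the count was 3 in the 4 libraries and 1 in all 8, where FDX1 alone kept its call.

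Leaving out list members that passed the level filter through 1 group alone, a choice made after seeing the data, moved the median of the metallothioneins from -0.408 to -0.368 and that of the immediate early genes from 0.123 to 0.105.

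Some differences near 0 changed sign. MECR went to 0.001664 with equal totals and FDXR to -0.01298 with quantile scaling. With single libraries left out the log2 differences ran from -0.02399 to 0.02175 for MECR, -0.06394 to 0.08907 for FDXR, -0.02741 to 0.09666 for MCAT, -0.01072 to 0.09329 for FDX2 and -0.04797 to 0.247 for OXSM. The depth being unknown, no detection limit can be given.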
